A study of Mus musculus with 2 samples.

Results

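The 10 genes described here belong to the Toll-like receptor pathway and were followed through 2 single-cell libraries of mouse microglia. They are the receptors Tlr1, Tlr2, Tlr3, Tlr4, Tlr7 and Tlr9, the co-receptors Cd14 and Ly96, and the adaptors Myd88 and Ticam1. They were taken by name, 10 of the 31053 genes listed, and all 10 had molecules in both libraries. Microglia, the resident macrophages of the brain, were sorted from the hypothalamus of young wild-type mice 20 hours after an injection of plasma protein that carried a dye. The sort parted cells that carried the dye (plasma-positive) from cells that did not (plasma-negative), and the animals of each sort were pooled into 1 library. Genotype, region, age class and injection were shared by both groups, and there was no uninjected group among the samples used here. The libraries were droplet libraries (10x Chromium 3' v3.1), which tag every RNA molecule they capture with its own barcode, the unique molecular identifier (UMI).

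Toll-like receptors are membrane proteins of innate immune cells that bind molecules of microbes or of damaged cells. Tlr1, Tlr2 and Tlr4 sit at the cell surface, where Tlr1 pairs with Tlr2 for bacterial lipopeptides and Tlr4 binds lipopolysaccharide with Ly96 (MD-2) after Cd14 hands it over. Tlr3, Tlr7 and Tlr9 sit in endosomes and bind double-stranded RNA, single-stranded RNA and unmethylated CpG DNA. Myd88 carries the signal of the receptors named here except Tlr3 to NF-kB, whereas Ticam1 (TRIF) serves Tlr3 and internalised Tlr4 and leads to interferon genes as well as to NF-kB. In the brain these receptors are mainly described in microglia.

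Cells were used if they had 500 or more UMIs, 300 or more genes and no more than 10% mitochondrial UMIs. This left 9860 cells and 34534518 UMIs in the plasma-negative library, and 10362 cells and 41984977 UMIs in the plasma-positive library. Median depth was 3270.5 and 3753 UMIs per cell, and the median mitochondrial share was 1.08% and 1.27%. At least 4 of 11 microglia markers were present in 99.8% of cells of both libraries, whose summed level was 32333 and 30792 UMIs per 1000000. Of the other myeloid markers, the 10 of border macrophages summed to 3.94 and 7.05 UMIs per 1000000 (5 and 2 of them at 0), the 9 of monocytes to 8.74 and 13.9 (3 at 0 in each library) and the 8 of neutrophils to 0.0290 and 0.0953 (7 and 6 at 0). The 8 of dendritic cells summed to 15.3 and 14.1 (1 at 0 in each library). The 7 of oligodendrocytes summed to 92.7 and 98.4, with 2 or more of them in 344 and 483 cells. In all, 368 and 533 cells had 2 or more markers of another cell type and were kept. With 1 library per group there is no replicate, so no test was run, all intervals are 95% intervals that cover counting error only, and the dye, the sort and the library preparation cannot be told apart. Barcodes shared between the libraries were not analysed here.

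The promoters of Tlr2, Tlr3 and Myd88 are shown because results on cells with response transcripts, further on, turn on these genes. RefSeq sequence of GRCm38.p6 from 250 bases before to 50 bases after the start site was at hand for 6 of the 10 genes. These had 7 windows, since Tlr1 had more than 1. The start sites used are not always the ends of the gene spans given further on. The Tlr3 and Myd88 windows lie wholly inside those spans. Capitals mark matches to 3 motifs searched on both strands, GGG, any 2 bases and TTTCC for NF-kB, GAAA, any 2 bases and GAAA for the interferon-stimulated response element, and GAGGAAG for PU.1. Positions are counted from the start site. The Tlr2 window is chr3:83841559-83841858, the Tlr3 window chr8:45410331-45410630 and the Myd88 window chr9:119339969-119340268, all 3 on the minus strand and written 5′ to 3′.
Tlr2: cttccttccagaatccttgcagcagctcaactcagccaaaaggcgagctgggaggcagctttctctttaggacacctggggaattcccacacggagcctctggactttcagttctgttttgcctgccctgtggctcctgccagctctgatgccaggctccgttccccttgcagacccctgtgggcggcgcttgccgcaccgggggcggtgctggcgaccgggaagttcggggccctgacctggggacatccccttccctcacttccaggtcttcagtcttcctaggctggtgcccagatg
Tlr3: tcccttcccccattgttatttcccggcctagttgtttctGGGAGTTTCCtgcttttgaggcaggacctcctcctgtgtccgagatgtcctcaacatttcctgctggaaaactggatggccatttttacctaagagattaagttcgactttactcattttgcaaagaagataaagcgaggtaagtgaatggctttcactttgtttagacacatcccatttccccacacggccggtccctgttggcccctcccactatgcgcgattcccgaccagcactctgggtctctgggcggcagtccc
Myd88: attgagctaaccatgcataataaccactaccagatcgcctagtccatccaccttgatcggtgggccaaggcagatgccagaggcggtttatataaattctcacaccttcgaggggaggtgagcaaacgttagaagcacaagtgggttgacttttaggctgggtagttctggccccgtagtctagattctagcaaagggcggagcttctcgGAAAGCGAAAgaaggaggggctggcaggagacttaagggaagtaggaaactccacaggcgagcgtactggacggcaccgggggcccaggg
The Tlr3 window held GGGAGTTTCC at -211, the letters of the NF-kB motif, which occur in 1.63% of 32851 promoters of the same length. The Myd88 window held GAAAGCGAAA at -40, the letters of the interferon element, which occur in 3.44% of them. The Tlr2 window held none of these exact letters. A wider form of the NF-kB consensus, searched on both strands after the data were seen and not marked by capitals, occurs in 8.46% of the promoters. It matched the Tlr2 window at -173, -172 (overlapping) and -8, and the Tlr3 window at the site already given. The PU.1 letters, present in 13.6% of promoters, were found in the windows of Tlr1 (at -23), Tlr9 (at -112 and, on the opposite strand, at 12) and Ticam1 (at -30). A match is a string of letters and no binding was measured.

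Levels are given as UMIs per 1000000 UMIs of the library (CPM). Each molecule is counted near its 3' end, so the values are per molecule and were not divided by gene length. The receptors of the cell surface came first in the comparison. Tlr2 (chr3:83836272-83841767, minus strand), the partner of Tlr1 in lipopeptide binding, had 2838 UMIs or 82.2 CPM (79.2 to 85.3) in the plasma-negative library and 3512 UMIs or 83.6 CPM (80.9 to 86.5) in the plasma-positive library. The intervals overlapped and the ratio of the plasma-positive to the plasma-negative level was 0.03 on the log2 scale (-0.05 to 0.10). Tlr1 (chr5:64924679-64933563, minus strand) was at 27.5 and 27.6 CPM, a log2 ratio of 0.01 (-0.12 to 0.13). Tlr1 is a close relative of Tlr6, and how reads shared by such genes were counted is not given in the sources used here. Tlr4 (chr4:66827584-66930284, plus strand), the lipopolysaccharide receptor, had 1996 and 2270 UMIs, which is 57.8 CPM (55.3 to 60.4) against 54.1 CPM (51.9 to 56.3). Its log2 ratio was -0.10 (-0.18 to -0.01), lower in the plasma-positive library by slightly more than counting error.

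Of the endosomal receptors, Tlr3 and Tlr7 had the higher levels and Tlr9 the lowest of the 10 genes. Tlr3 (chr8:45395665-45411080, minus strand), the receptor for double-stranded RNA, had 4845 and 5949 UMIs, 140.3 CPM (136.4 to 144.3) and 141.7 CPM (138.1 to 145.3), and its log2 ratio was 0.01 (-0.04 to 0.07). An antisense gene, Gm45542, overlaps it with 0.521 and 0.310 CPM. Tlr7 (chrX:167304929-167330558, minus strand), the receptor for single-stranded RNA, had 4861 and 5824 UMIs, 140.8 CPM (136.8 to 144.8) and 138.7 CPM (135.2 to 142.3), with a log2 ratio of -0.02 (-0.08 to 0.03). Neither differed between the libraries beyond counting error. Tlr9 (chr9:106222598-106226883, plus strand), the receptor for CpG DNA, had 212 and 231 UMIs, 6.14 and 5.50 CPM. It lay under the 10 CPM that a gene needed in at least 1 library to enter the comparison of ratios, and its intervals, 5.34 to 7.02 and 4.81 to 6.26 CPM, overlapped.

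Cd14, the protein that hands lipopolysaccharide to the receptor complex, had the highest level of the 10 genes and the clearest difference between the libraries. Its 14097 plasma-negative UMIs gave 408 CPM (402 to 415) and its 14741 plasma-positive UMIs gave 351 CPM (345.5 to 357). The intervals did not overlap, and the plasma-positive library was lower by a log2 ratio of -0.22 (-0.25 to -0.18). That ratio lay at the 4.70th percentile of the 8355 genes compared, and below the 5th percentile, -0.17, of the 500 genes nearest to it in level. Cd14 was the gene at rank 323 by UMIs in the plasma-negative library and at rank 386 in the plasma-positive library. Ly96 (chr1:16688051-16709611, plus strand), the soluble partner of Tlr4, had 71.9 CPM (69.1 to 74.8) and 68.6 CPM (66.1 to 71.1), and its log2 ratio was -0.07 (-0.15 to 0.01).

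The adaptors were scarcer than most receptors. Myd88 (chr9:119335934-119341411, minus strand), the adaptor shared by most of the receptors, had 1137 and 1355 UMIs, 32.9 CPM (31.0 to 34.9) and 32.3 CPM (30.6 to 34.0), and its log2 ratio was -0.03 (-0.14 to 0.09). It overlaps Acaa1a on the opposite strand, at 65.4 and 64.5 CPM, and the use of strand in counting is not given, so its level is uncertain to that extent. Ticam1 (chr17:56269319-56276786, minus strand), the adaptor of Tlr3, had 442 and 470 UMIs, 12.8 CPM (11.6 to 14.0) and 11.2 CPM (10.2 to 12.2). Its log2 ratio of -0.19 (-0.38 to -0.00) was at the edge of counting error, although the intervals of its 2 levels overlapped. Gene positions are from GENCODE M21 on GRCm38, which need not be the annotation the counts were made with.

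**Figure D1:**
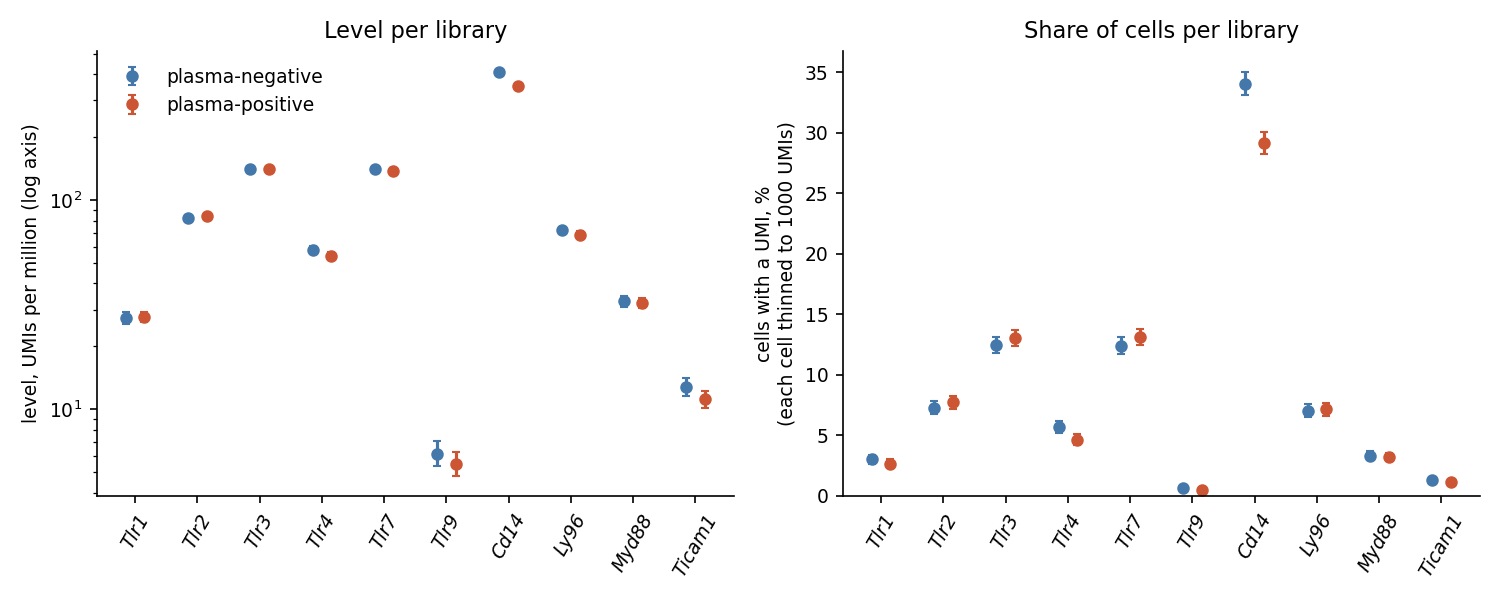
Levels of the 10 genes in CPM (left, log axis) and the share of cells with at least 1 UMI after each cell was thinned to 1000 UMIs (right, percent), for the plasma-negative and the plasma-positive library. Points are libraries and bars are 95% counting intervals (Poisson on the left, binomial on the right). Cd14 is highest in both libraries and lower in the plasma-positive library, at 351 against 408 CPM and 29.2% against 34.0% of cells.

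The order of the levels was the same in both libraries except for 1 exchange. From high to low it ran Cd14, then Tlr3 and Tlr7, then Tlr2, Ly96, Tlr4, Myd88, Tlr1, Ticam1 and Tlr9. Tlr7 stood above Tlr3 by a ratio of 1.00 (0.964 to 1.04) in the plasma-negative library and Tlr3 above Tlr7 by 1.02 (0.985 to 1.06) in the plasma-positive library, so this pair did not differ beyond counting error. Every other pair of neighbours did, the closest being Tlr2 above Ly96 by 1.14 (1.08 to 1.21) in the plasma-negative library and Myd88 above Tlr1 by 1.17 (1.08 to 1.26) in the plasma-positive library. Summed by role, the 6 receptors had 455 and 451 CPM, a ratio of 0.993 (0.972 to 1.01), and the 2 adaptors 45.7 and 43.5 CPM, a ratio of 0.951 (0.888 to 1.02). The 2 co-receptors had 480.1 and 419.7 CPM, a ratio of 0.874 (0.856 to 0.893), so the lower sum of the 10 genes in the plasma-positive library (914 against 980.5 CPM) lay mostly in Cd14.

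None of the 9 genes past 10 CPM differed by 1.5-fold or more in either direction. Among all 8355 genes past that level 0.323% were higher and 0.0239% lower by that fold in the plasma-positive library, so a count of 0 of 9 is near this background. The median log2 ratio of the 9 was -0.03, beside -0.04 over all genes. By counting intervals 3 of the 9 (Tlr4, Cd14 and Ticam1) were lower in the plasma-positive library and 0 were higher, whereas 26.4% of all genes were lower and 11.9% higher. Among the ratios of all genes Ticam1 lay at percentile 7.10, Tlr4 at 29.3 and Ly96 at 38.5, and the other 5 apart from Cd14 lay between 53.9 and 72.1.

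The share of cells with at least 1 UMI depends on depth, so each cell was thinned to 1000 UMIs, which kept 9064 plasma-negative and 9759 plasma-positive cells and left out 796 and 603 shallower ones. Cd14 was detected in 34.0% (33.1 to 35.0) and 29.2% (28.2 to 30.1) of thinned cells, and in 67.7% and 67.9% before thinning. Tlr3 was detected in 12.4% and 13.1% of thinned cells (34.1% and 38.3% unthinned) and Tlr7 in 12.4% and 13.1% (35.3% and 38.6%). Tlr2 followed with 7.28% and 7.73% (22.9% and 25.6%), Ly96 with 7.05% and 7.14% (20.3% and 22.4%) and Tlr4 with 5.69% and 4.65% (17.4% and 18.5%). The adaptors and the rarer receptors were in few cells at this depth. Myd88 was in 3.32% and 3.21% (10.4% and 11.6%), Tlr1 in 3.02% and 2.67% (8.71% and 10.1%), Ticam1 in 1.32% and 1.13% (4.27% and 4.28%) and Tlr9 in 0.640% and 0.512% (2.11% and 2.14%). For Tlr1, Tlr7 and Ly96 the thinned share and the level moved in opposite directions, and no order of the libraries is read from these. Nearly all cells were microglia, so there was no cell type that lacks these genes from which to measure the share that free RNA gives.

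Most cells held few of the 10 transcripts. At full depth 89.1% of the cells of the plasma-negative library and 91.0% of those of the plasma-positive library had a UMI of at least 1 of the 10 genes, with a median of 2 genes per cell, and in thinned cells 61.8% and 59.5% did, with a median of 1. The variance of the thinned counts divided by their mean, which is 1 for counts that vary by sampling alone, lay between 0.987 and 1.10 for the 10 genes. It was 1.08 and 1.10 for Cd14, 1.06 and 1.09 for Tlr3, and 1.08 and 1.02 for Tlr2. Genes of like level had medians of 1.07 and 1.06, 1.04 and 1.04, and 1.04 and 1.03, so these 3 genes varied among cells about as much as other genes of their level, within the range up to the 95th percentile of those genes.

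The receptors and their partners were also looked up in the same cells, after thinning to 2000 UMIs (8249 and 9109 cells). Tlr4, Cd14 and Ly96, the parts of the lipopolysaccharide receptor, were seen together in 66 plasma-negative cells, where the product of the 3 single shares gives 65.9, and in 62 plasma-positive cells, where it gives 56.2. Tlr1 and Tlr2 were seen together in 64 cells against 63.9 from the product, and in 75 against 68.7. Tlr3 and its adaptor Ticam1 were seen together 1.27 times (0.986 to 1.61) and 0.939 times (0.668 to 1.28) as often as the product gives. For Tlr4 and Ticam1 the values were 0.688 (0.401 to 1.10) and 0.981 (0.572 to 1.57). Over all pairs of the 10 genes, an interval excluded 1 only for Tlr3 with Myd88 and for Tlr2 with Ly96, each in 1 library. Tlr3 and Myd88 were seen together 1.21 times (1.02 to 1.42) and 1.04 times as often as the product gives, and Tlr2 and Ly96 1.09 times and 1.19 times (1.04 to 1.36). They were picked for these values and are not receptors with their partners. For the pairs given here without Ticam1 the number of cells stayed near the product of the single shares. For Tlr3 and Myd88 the plasma-negative value was 1.01 when cells were thinned to 1000 UMIs.

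**Figure D2:**
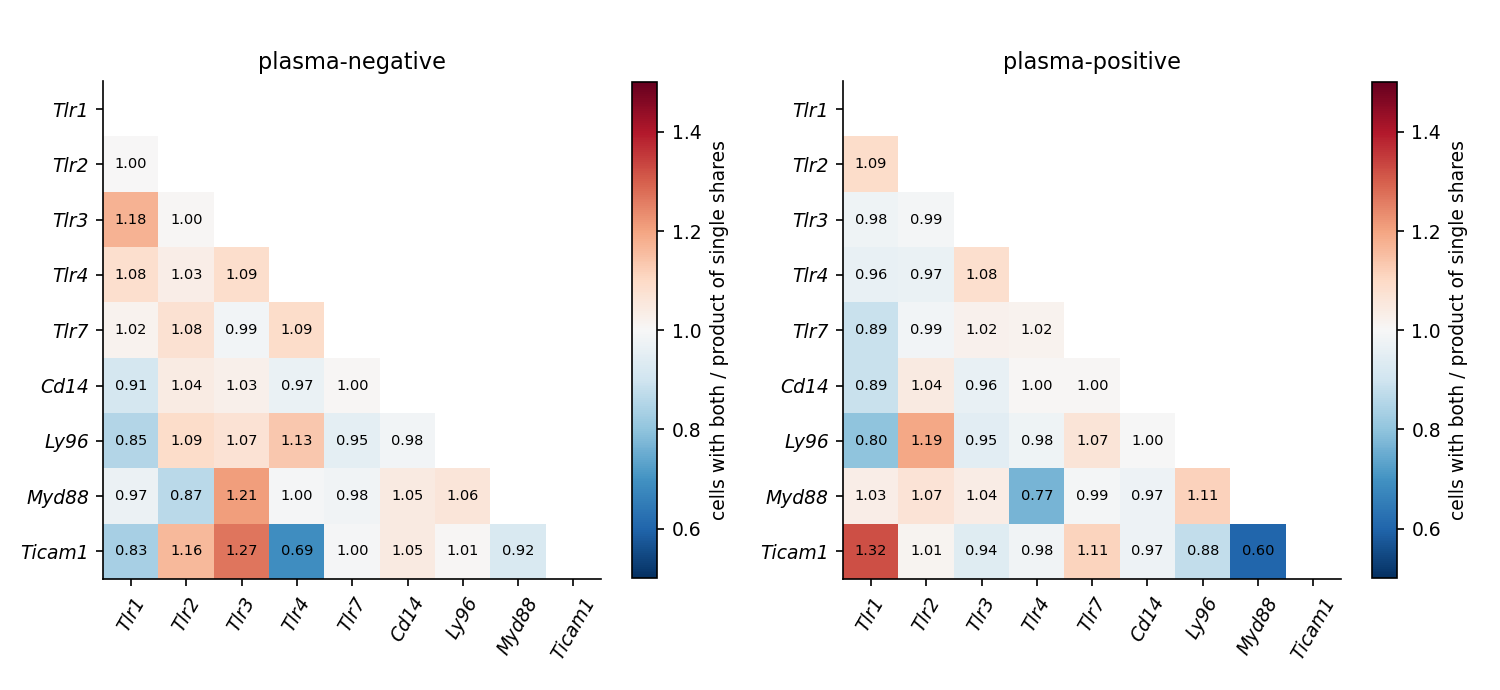
Joint detection of pairs of the genes in single cells thinned to 2000 UMIs, in the plasma-negative (left) and the plasma-positive library (right), as the number of cells with both over the number that the product of the single shares gives. Tlr9 is left out for its few cells. Values near 1.00 prevail, such as 1.00 and 1.09 for Tlr1 with Tlr2, and the values farthest from 1.00 belong to Ticam1, which was in few cells.

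Response transcripts of the pathway were used to look for cells in which the 10 genes differed. In each library, cells thinned to 1000 UMIs were split by a list of genes that holds none of the 10, into cells with at least 2 list UMIs and cells with 0. These are ranges of a count, not cell types. The list of NF-kB output genes (Ccl3, Ccl4, Ccl2, Ccl7, Cxcl2, Tnf, Il1a, Il1b, Nfkbiz and Tnfaip3) was present in 151 plasma-negative and 158 plasma-positive cells, against 7848 and 8377 cells with none, and 123 and 106 of the former were just at the minimum. Microglia markers summed to 30346 and 27099 CPM in the cells with the list and 32562 and 31007 CPM in those without, and the markers of other myeloid cells to 34.0 and 54.2 CPM against 28.0 and 34.0 CPM. The part of these differences in the results was not tested.

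Tlr2 stood out among the 10 genes in these cells in the plasma-positive library. It had 208 CPM there in cells with NF-kB output transcripts and 81.1 CPM in cells without, a ratio of 2.57 (2.16 to 3.03). In the plasma-negative library it had 102 against 81.5 CPM, a ratio of 1.251 (0.958 to 1.61). It did not stand out there, since Myd88 (1.263, 0.821 to 1.86) and Tlr1 (1.248, 0.768 to 1.92) had like ratios. The cells without the transcripts were alike in both libraries, and the cells with them differed between the libraries by a ratio of 2.04 (1.51 to 2.79). Ticam1 also passed 1.5-fold in the plasma-positive library, at 20.0 against 11.3 CPM, but on 14 UMIs and with an interval of 0.957 to 2.998. So 2 of 9 genes were 1.5-fold or more higher and 0 lower there, where 6.32% and 9.26% of all genes were. In the plasma-negative library 0 were higher and 1 was lower (Ticam1, on 5 UMIs), where 7.15% and 5.98% of all genes were. Cd14 was at 443 against 407 CPM (ratio 1.09, 0.963 to 1.23) and at 415 against 351 CPM (1.18, 1.05 to 1.33).

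Part of the Tlr2 difference lay in few cells. Of the 158 plasma-positive cells, 11 (6.96%) had 4 or more Tlr2 UMIs, beside 33 of 8377 cells (0.394%) without the list. Of the 151 plasma-negative cells 3 (1.99%) did, beside 17 of 7848 (0.217%). The 3 cells with the most Tlr2 held 33 of the 146 Tlr2 UMIs in the plasma-positive library and 22 of 63 in the plasma-negative library, where a single cell had 13. In thinned cells Tlr2 was detected in 14.6% (9.46 to 21.04) of plasma-positive cells with the list and 7.56% without (37.3% and 26.4% unthinned), and in 7.95% (4.17 to 13.5) and 7.33% of plasma-negative cells (21.2% and 24.2% unthinned).

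The makeup of the list differed between the libraries. Ccl4 gave 43.1% of the list's UMIs in plasma-positive cells and 31.3% in plasma-negative cells, and Il1a 14.3% and 29.0%. Around single list genes, Tlr2 was at 190.7 CPM in the 33 plasma-negative cells with Tnf and 189.9 CPM in the 56 plasma-positive cells with Tnf, at 2.34 times the level of cells without the list in each (1.54 to 3.41 and 1.72 to 3.11). With Ccl4 it was at 140.5 and 216 CPM, 1.72 times (1.255 to 2.32) and 2.67 times (2.15 to 3.27). With Il1a, which was in 729 and 806 cells, it was at 76.9 and 87.1 CPM, 0.944 times (0.816 to 1.09) and 1.07 times (0.950 to 1.21). With Ccl2, in 24 and 73 cells, it was at 202.9 and 155.9 CPM, 2.49 times (1.497 to 3.90) and 1.92 times (1.44 to 2.51). The interval lay above 1 in both libraries for Tnf, Ccl4 and Ccl2. It did so in the plasma-positive library alone for Ccl3 (1.28 times, 0.926 to 1.72, and 1.57 times, 1.20 to 2.03), Nfkbiz (0.867 times, 0.579 to 1.248, and 1.76 times, 1.35 to 2.24) and Il1b (1.43 times, 0.295 to 4.19, and 2.03 times, 1.34 to 2.97). For Il1a it held 1 in both. It also did so for Tnfaip3, in 221 and 228 cells (0.945 times, 0.728 to 1.21, and 1.19 times, 0.958 to 1.45). Ccl7, in 4 and 7 cells (3.33 times, 0.685 to 9.73, and 0.398 times, 0.0101 to 2.22), and Cxcl2, in 1 and 2 cells, had too few cells to read. These cells overlap, since a cell can hold several list genes. With Il1a taken off the list the ratio of Tlr2 was 1.86 (1.34 to 2.52; 64 cells) in the plasma-negative library and 3.68 (3.02 to 4.44; 79 cells) in the plasma-positive library. With Ccl4 taken off it was 1.23 (0.915 to 1.62; 128 cells) and 2.22 (1.82 to 2.69; 139 cells). For Cd14 the interval lay above 1 in both libraries with Ccl3 (1.46 and 1.38 times) and Ccl4 (1.40 and 1.41 times). It did so in the plasma-positive library alone with Il1b (1.32 times, 1.04 to 1.66). With Tnf (1.16 and 0.980 times), Il1a (1.03 and 0.980 times), Nfkbiz (0.898 and 1.02 times), Ccl2 (1.21 and 1.02 times) and Tnfaip3 (0.935 and 1.09 times) it held 1 in both.

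The cells with the most NF-kB output UMIs had the highest levels of Tlr2 and Cd14 among the groups by list UMIs. With 4 or more list UMIs, a group added after the data were seen, there were 15 plasma-negative and 34 plasma-positive cells. Tlr2 was at 397 CPM (257 to 587) and 277 CPM (204 to 367) in them, 4.88 times (3.15 to 7.22) and 3.41 times (2.51 to 4.54) the level of cells with 0. Cd14 was at 684 CPM (495 to 921) and 657 CPM (542 to 789), 1.68 times (1.22 to 2.27) and 1.87 times (1.54 to 2.25). In the cells with 2 to 3 list UMIs Cd14 was at 416 CPM (364 to 473; 136 plasma-negative cells) and 335 CPM (288 to 388; 124 plasma-positive cells), beside 407 and 351 CPM in cells with 0. Tlr2 was at 68.5 CPM (48.4 to 93.96) in those plasma-negative cells and at 185.6 CPM (150.7 to 226) in the plasma-positive ones. With 4 or more list UMIs both genes were higher than in cells with 0 in both libraries, while Tlr3 (0.8002 and 0.857 times) and Tlr7 (0.791 and 0.835 times) were within counting error of them. In plasma-positive cells Ticam1 was at 46.1 CPM on 8 UMIs (4.08 times, 1.75 to 8.12) and Tlr4 at 17.3 CPM on 3 UMIs (0.320 times, 0.0660 to 0.937), while in the 15 plasma-negative cells Ticam1 had 0 UMIs, which allows up to 4.57 times, and Tlr4 had 3 (0.821 times, 0.169 to 2.40). In groups this small 25.6% and 17.6% of all genes were 1.5-fold or more higher and 35.2% and 31.2% lower. The intervals count UMIs as independent and leave out the spread between cells. Of the 63 Tlr2 UMIs in all 151 plasma-negative list cells a single cell held 13. The 15 plasma-negative cells with 4 or more list UMIs had 25 Tlr2 UMIs, and whether that cell is among them was not determined. Their Tlr2 level may therefore rest largely on a single cell. In 1 of the other settings, which took at least 3 list UMIs (28 and 52 cells), Tlr2 was at 3.84 times and 2.92 times the level of cells with 0, and with cells assigned at 2000 UMIs (374 and 436 cells) at 1.37 times and 1.53 times.

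**Figure D3:**
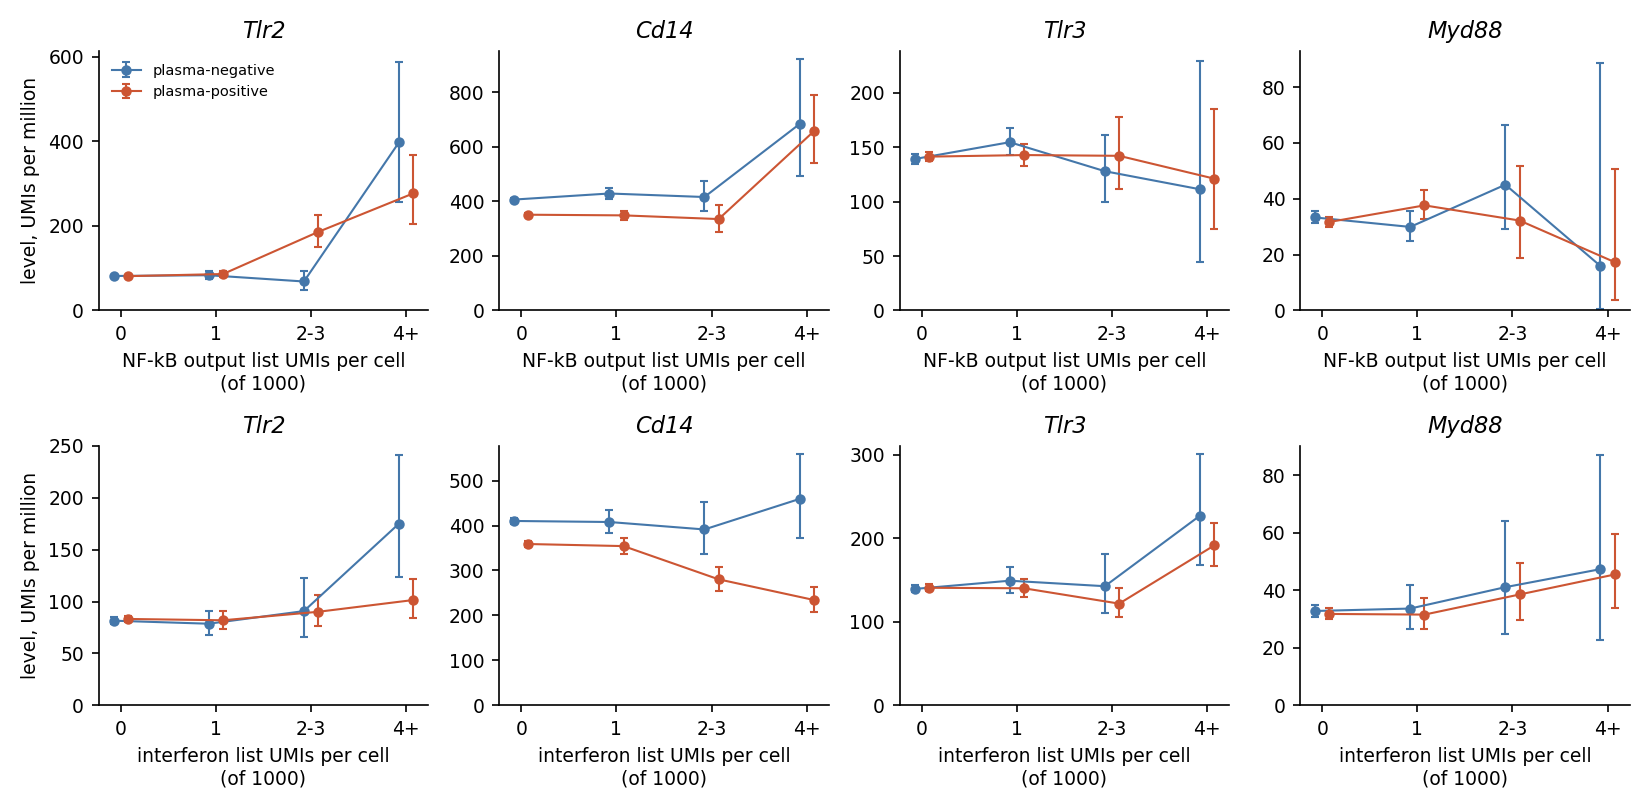
Levels of Tlr2, Cd14, Tlr3 and Myd88 (CPM) in cells with 0, 1, 2 to 3, and 4 or more UMIs of the NF-kB output list (top) or the interferon list (bottom) among 1000 UMIs, in the plasma-negative and the plasma-positive library. Bars are 95% Poisson intervals and lines only join the groups of 1 library. Tlr2 and Cd14 are highest in the top group of NF-kB output UMIs, at 397 and 277 CPM and at 684 and 657 CPM, and plasma-positive Cd14 declines over the interferon groups from 359 to 234 CPM.

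Interferon response transcripts (15 genes, among them Ifit1, Isg15 and Rsad2) were present in 174 plasma-negative and 621 plasma-positive cells and at 0 in 8254 and 8121. Markers of other myeloid cells summed to 74.2 and 123 CPM in cells with them, beside 26.6 and 28.1 CPM in cells without. Microglia markers summed to 30162 and 26299 CPM in cells with interferon transcripts, beside 32654 and 31428 CPM in cells without, and the median mitochondrial share was 1.07% and 1.39% beside 1.05% and 1.24%. The part of these in the results was not tested. No gene of the 9 passed 1.5-fold in either library. Of all genes 5.93% were higher and 8.39% lower in the plasma-negative library, and 2.95% and 3.9% in the plasma-positive library. Cd14 was lower in plasma-positive cells with interferon transcripts, at 261 against 359 CPM (ratio 0.728, 0.674 to 0.785), and at 413 against 410.2 CPM in plasma-negative cells (1.01, 0.890 to 1.13). Its plasma-positive log2 ratio was -0.458, where all genes had a median of -0.121 and quartiles of -0.276 and 0.039. Myd88 was at 43.0 against 32.8 CPM (1.31, 0.874 to 1.90) and at 41.4 against 31.8 CPM (1.30, 1.07 to 1.58), so its ratio was alike in both libraries and past counting error in the plasma-positive library, which had more such cells. Tlr2 was at 117 against 81.5 CPM (1.44, 1.13 to 1.80) and at 94.8 against 83.2 CPM (1.14, 1.00008 to 1.29). The latter interval lay above 1 only at its edge. The plasma-negative ratio of Tlr2 ran from 1.34 to 1.76 over 4 other settings. Tlr3 was at 169 against 139 CPM (1.21, 0.999 to 1.46) and at 151 against 141 CPM (1.07, 0.966 to 1.18).

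With 4 or more interferon UMIs, again a group added after the data were seen, there were 52 and 265 cells. Tlr3 was at 227 CPM and 192 CPM, 1.63 times (1.20 to 2.17) and 1.36 times (1.18 to 1.56) the level of cells with 0. Myd88 was at 47.3 and 45.5 CPM, 1.44 times (0.690 to 2.67) and 1.43 times (1.06 to 1.89). Cd14 was at 459 CPM (1.12 times, 0.907 to 1.37) and 234 CPM (0.653 times, 0.577 to 0.737). Tlr2 was at 175 CPM (2.15 times, 1.51 to 2.97) and 101 CPM (1.22 times, 1.004 to 1.47). In this group Tlr2 and Tlr3 were each above their level in cells with 0 in both libraries. For Tlr2 in the plasma-positive library this was at the edge of counting error. Cd14 was lower in the plasma-positive library and within counting error in the plasma-negative one. Tlr3 did not rise step by step with the interferon UMIs. In cells with 2 to 3 of them it was at 142.7 CPM (110.4 to 182; 122 plasma-negative cells) and at 121.8 CPM (105 to 140.1; 356 plasma-positive cells), the latter below the 140.8 CPM of cells with 0. Of all genes 13.3% and 5.36% were 1.5-fold or more higher and 21.8% and 14.6% lower. Apart from the cells with interferon transcripts, the libraries still differed in Cd14. In cells with neither interferon nor Apoe UMIs (7649 and 6793) it was at 411 and 362 CPM, a log2 ratio of -0.19 (-0.22 to -0.15).

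Apoe, a lipid carrier that microglia raise in several reactive states, was present with at least 2 UMIs in 262 plasma-negative and 901 plasma-positive cells. Microglia markers summed to 28789 and 25695 CPM in them, beside 32722 and 31655 CPM in cells without Apoe, and the median mitochondrial share was 1.47% and 1.70% beside 1.04% and 1.21%. The part of these in the results was not tested. Of the 9 genes 0 passed 1.5-fold in either library, where 1.95% and 2.21% of all genes were higher and 7.57% and 4.16% lower. In plasma-positive cells with Apoe, Tlr2 was at 103 against 80.7 CPM (ratio 1.28, 1.16 to 1.42), while Tlr3 was at 114 against 146 CPM (0.778, 0.709 to 0.853), Tlr4 at 44.9 against 55.7 CPM (0.806, 0.692 to 0.933) and Tlr7 at 121 against 141 CPM (0.854, 0.780 to 0.935). So Tlr2 was higher and these 3 receptors were lower. Cd14 was lower too, at 314 against 357 CPM (0.879, 0.831 to 0.929). Most genes were lower in plasma-positive cells with Apoe, with a median log2 ratio of -0.177 and quartiles of -0.314 and -0.028. Cd14 (-0.186), Tlr4 (-0.312) and Tlr7 (-0.227) lay within these quartiles and Tlr3 (-0.361) just below them, so their lower levels were near the shift of all genes. The plasma-negative ratios were 1.20 (0.979 to 1.46) for Tlr2, 1.04 (0.881 to 1.22) for Tlr3, 1.02 (0.778 to 1.31) for Tlr4 and 0.840 (0.699 to 1.00) for Tlr7, with intervals that included 1. Ly96 was the gene with an interval under 1 there, at 52.8 against 73.8 CPM (0.715, 0.538 to 0.931), and at 63.9 against 68.6 CPM (0.932, 0.820 to 1.06) in the plasma-positive library.

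**Figure D4:**
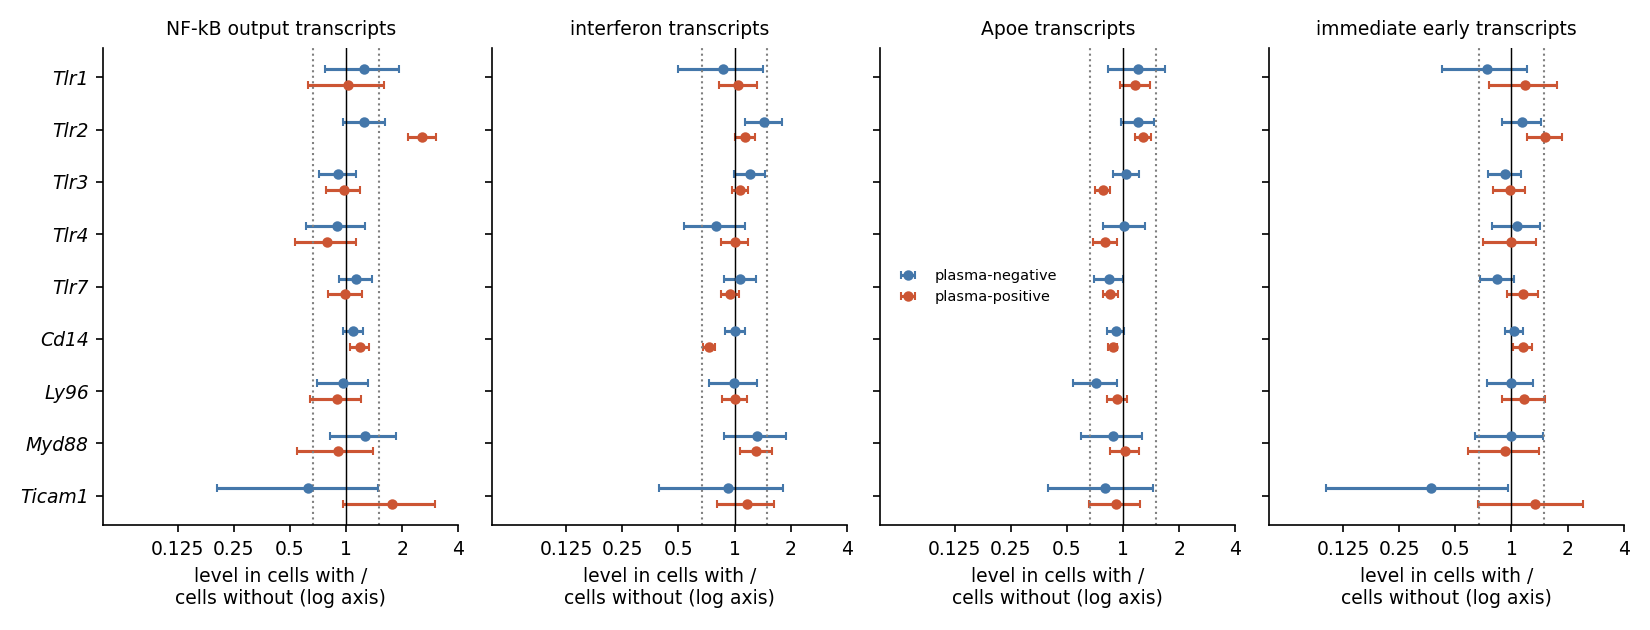
Ratio of each gene's level in cells with a list of transcripts to its level in cells without, for 4 lists, on a log axis. Points are libraries, bars are 95% counting intervals, the solid line marks 1 and the dotted lines 1.5-fold. Tlr2 lies above 1.5-fold with NF-kB output transcripts in the plasma-positive library (2.57), and plasma-positive Cd14 lies below 1 with interferon transcripts (0.728).

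Immediate early transcripts (Fos, Fosb, Jun, Junb, Egr1, Ier2, Atf3 and Dusp1), which also rise when cells are dissociated, were present with at least 3 UMIs in 210 and 186 cells. Tlr2 was at 91.0 against 79.8 CPM (ratio 1.14, 0.887 to 1.45) in plasma-negative cells and at 123 against 81.4 CPM (1.51, 1.21 to 1.86) in plasma-positive cells, where it ran from 1.33 to 1.74 over 4 other settings. That made 1 of 9 genes 1.5-fold higher in the plasma-positive library, where 5.16% of all genes were higher and 5.75% lower. In the plasma-negative library Ticam1 was lower on 4 UMIs, 1 of 9 genes, where 5.18% of all genes were higher and 4.9% lower. Cycling transcripts such as Top2a and Mki67 were in 18 and 48 cells, with too few UMIs for most of the genes. In them 5 of 9 genes were 1.5-fold or more lower and 1 higher in the plasma-negative library (background 26.6% and 33.1%) and 6 lower and 0 higher in the plasma-positive library (20.2% and 25.4%). Cd14 was the gene whose interval lay under 1 in both, at 113 against 411 CPM (0.274, 0.131 to 0.504) and at 217 against 354 CPM (0.614, 0.468 to 0.791), and microglia markers were also lower in these cells, at 23261 against 32554 CPM and 21813 against 30973 CPM.

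Cd14 moved with the depth and the mitochondrial share of cells within each library. From the 25% of cells with the fewest UMIs to the 25% with the most it went from 446 to 380 CPM in the plasma-negative library and from 375 to 327 CPM in the plasma-positive library. From the 25% of cells with the lowest mitochondrial share to the 25% with the highest it went from 424 to 379 CPM and from 369 to 327 CPM. The plasma-positive library was the deeper one and had the higher mitochondrial share. With cells thinned to 1000 UMIs the log2 ratio of Cd14 between the libraries was -0.25, and averaged over 10 bins of mitochondrial share it was -0.19. Tlr3 went from 125.03 to 143 CPM between the shallowest and deepest cells of the plasma-negative library, and from 139.7 to 139.0 CPM in the plasma-positive library.

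The other 80 genes fixed for the pathway give the setting of the 10. Of these 56 passed 10 CPM, and 5 were 1.5-fold or more higher and 0 lower in the plasma-positive library, with a median log2 ratio of -0.03 over the 56. Of the 8355 genes tested 0.323% were higher and 0.0239% lower by that fold. Of the 5, Irf7, Ccl5, Ccl2 and Cxcl10 reached 10 CPM only in the plasma-positive library, so they had to be higher there to be counted and nothing is read from their number. Of the 8 other receptors and their partners, 5 passed and 0 differed by that fold. Ly86, the partner of the lipopolysaccharide-sensing protein Cd180, was at 2638 and 2743 CPM and Cd180 at 209 and 207 CPM. Tlr13, a receptor for bacterial ribosomal RNA, was at 97.4 and 98.8 CPM, Tlr12 at 33.8 and 34.0 CPM and Tlr6 at 21.5 and 21.5 CPM. Tlr5 was at 7.70 and 7.46 CPM, Tlr11 at 0.261 and 0.286 CPM, and Tlr8 had 0 and 2 UMIs. Of the 10 trafficking cofactors 7 passed and 0 differed by 1.5-fold, among them Unc93b1, which carries the nucleic acid receptors to endosomes, at 1028 and 1003 CPM.

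Proximal signalling genes (17 of 21 past 10 CPM) had a median log2 ratio of -0.05 and negative regulators (8 of 12) one of -0.13, with 0 genes of either past 1.5-fold. Among the 56 genes past 10 CPM, which leave out the 10 receptors and adaptors described above, the lowest ratios were those of Traf3, which links Ticam1 to interferon induction, at 20.3 and 16.9 CPM (-0.27, -0.42 to -0.11), of Relb, an NF-kB subunit, at 27.2 and 23.5 CPM (-0.21, -0.34 to -0.08), and of Nfkbib, an NF-kB inhibitor, at 25.2 and 21.9 CPM (-0.20, -0.34 to -0.07). Of the transcription factors 9 of 10 passed and 1 was higher, Irf7, the interferon regulatory factor downstream of Tlr7 and Tlr9, at 4.08 and 10.7 CPM, a log2 ratio of 1.40 (1.12 to 1.68). Response genes (10 of 19) had a median of 0.28 and 4 genes past 1.5-fold, all chemokines. These were Ccl5 (2.58 and 24.2 CPM, log2 ratio 3.23), Ccl2 (3.33 and 12.2 CPM, 1.87), Ccl4 (20.7 and 44.1 CPM, 1.09) and Cxcl10 (8.95 and 14.8 CPM, 0.73). Ccl5, Ccl2 and Cxcl10 passed 10 CPM only through the plasma-positive library, which raises the median of the response genes. That median is therefore not to be compared with those of the other roles.

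**Figure D5:**
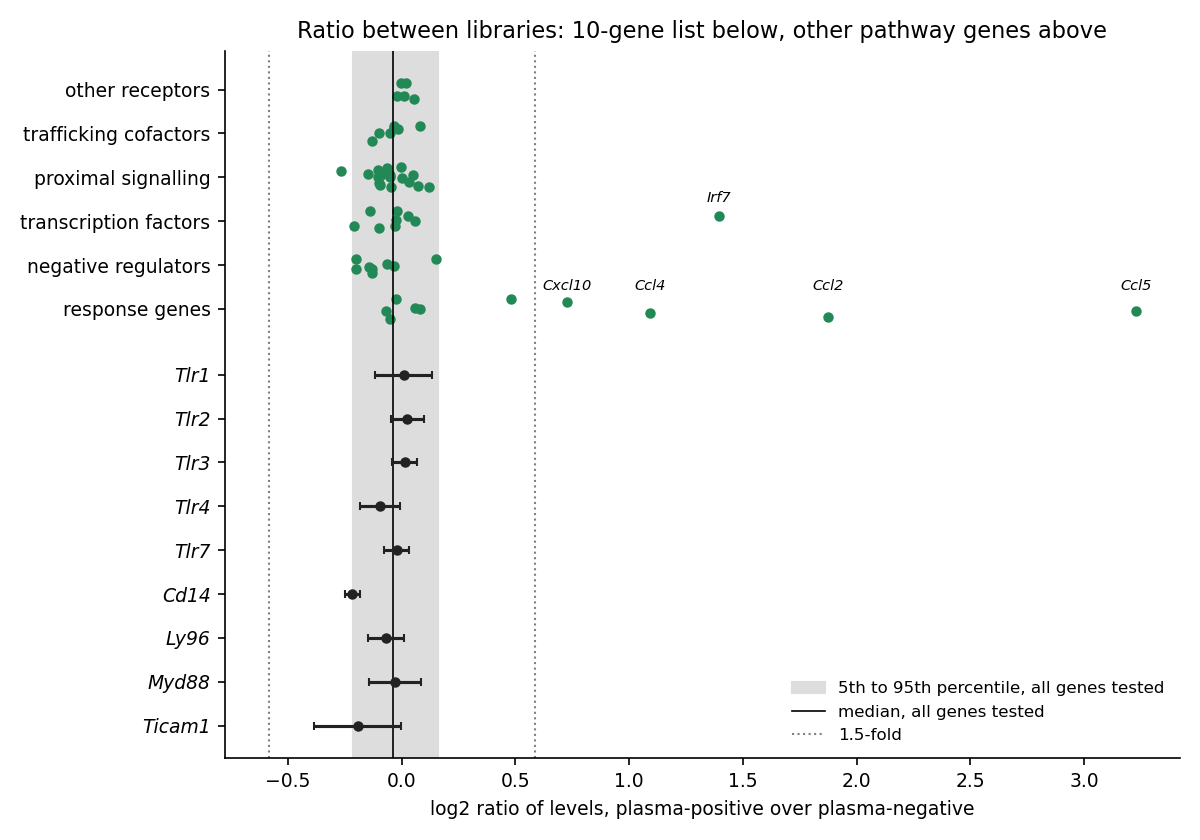
Log2 ratio of level, plasma-positive over plasma-negative, for the 9 genes past 10 CPM (black, with 95% counting intervals) and for the other pathway genes past 10 CPM by role (green). The grey band is the 5th to 95th percentile of all 8355 genes, the solid line their median of -0.04 and the dotted lines 1.5-fold. The 9 genes lie between -0.22 and 0.03, and the 5 labelled genes beyond the right dotted line reach 3.23.

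Genes whose counts went along with the 3 most abundant of the 10 were sought over single cells, with Pearson's r on log(1 + count) of cells thinned to 1000 UMIs (9064 and 9759 cells, 3356 genes past 50 CPM). All values were weak, and in counts this sparse they are no finding. For Cd14 the first 5 genes by the lower of both libraries' r were C1qa (0.05 and 0.04), Cyba (0.04 and 0.03), Gpr34, BC017643 and C1qb. For Tlr3 they were Cx3cr1 (0.03 and 0.03), Zfhx3, Mef2a, Kcnk6 and Slc7a8, and for Tlr7 Slco2b1 (0.03 and 0.03), Qk, Sash3, Il10rb and Slc38a10.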

How the data were processed

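The deposited files held raw UMI counts per gene and cell, made by the authors with Cell Ranger. The version is 6.1.2 per the file headers and 3.0.1 per the submitters' processing notes. Genome build, annotation, use of strand and cell calling settings are not given in the sources used here. Groups came from the labels. The members and gene lists were chosen with earlier results of these data known. All 10 members were named. Of the other pathway genes past 10 CPM, the 3 highest and 3 lowest ratios and those past 1.5-fold were named, and the other receptors were given in full after their values were seen. Likeness followed a fixed rule. Counts were summed over kept cells, with exact Poisson, binomial (Clopper-Pearson) and conditional binomial intervals and no pseudocount. The scripts were tested on simulated data. Scrublet marked 0 cells as doublets and none were removed, but an alternative removed the 778 and 859 cells of highest score. Tools were Python 3.11.15, numpy 2.4.6, scipy 1.17.1, pandas 2.3.3, scanpy 1.11.5 and edgeR 4.0.16 (TMM factors only). GENCODE M21 gave coordinates only. Libraries held 34549522 and 42006454 UMIs before filtering.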

Additional observations from a re-analysis of the deposited data

How the results depend on the processing

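Between the libraries, 0 genes passed 1.5-fold under each setting tried, or a lower fold fixed as an alternative, the settings being a minimum of 1000 UMIs per cell, a mitochondrial limit of 5%, removal of high doublet scores, TMM scaling, totals without mitochondrial and ribosomal genes, means over cells, thinning, mitochondrial bins, and removal of cells with markers of other types. The log2 ratio of Cd14 ranged from -0.25 to -0.18, that of Tlr4 from -0.29 to -0.06 and that of Tlr1 from -0.18 to 0.05. TMM moved the median of all genes by 0.04. The splits of cells by response transcripts were less stable, and the cause was not tested. With a higher list minimum (3 UMIs, or 5 for immediate early genes), interferon gave 1 gene higher and 2 lower and Apoe 1 lower in the plasma-negative library. NF-kB output then gave 1 higher in the plasma-negative library (28 cells) and 3 lower in the plasma-positive library (52 cells). Immediate early gave 4 lower (plasma-negative, 15 cells) and 4 higher (plasma-positive, 14 cells), and cycling 0 higher (plasma-negative, 13 cells). With cells assigned at 2000 UMIs, NF-kB output gave 0 lower (plasma-negative) and 1 higher (plasma-positive), immediate early 0 lower and 0 higher, and cycling 0 higher (plasma-negative) and 3 lower (plasma-positive). Without high doublet scores, plasma-positive immediate early cells gave 0 higher. Settings added after the data were seen were the groups of 4 or more list UMIs, the lists without Il1a or Ccl4, splits without cells with markers of other types, and a median over genes past 50 CPM. Without cells with markers of other types, plasma-negative interferon gave 1 higher and NF-kB output 0 lower. Without Il1a, NF-kB output gave 1 higher and 0 lower in the plasma-negative library and 2 lower in the plasma-positive library. Ticam1 reversed at 2000 UMIs in the plasma-negative library, to 1.152 with NF-kB output and 1.247 with immediate early transcripts. Of 660 other values 552 kept within counting error, and 106 moved beyond it in size. The 660 include shares of cells with a UMI, unthinned or at 2000 UMIs, set against the shares at 1000 UMIs. Such shares rise with depth, so part of the 106 moved by construction. No paired analysis was possible because there was a single library on each side, and no replicate could be left out.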
